A study of Rattus norvegicus with 11 samples.

Results

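The genes described here are Ctnnb1, which encodes beta-catenin, and 6 genes of proteins that bind or regulate it: the kinases Gsk3a and Gsk3b, the scaffolds Apc, Axin1 and Axin2, and N-cadherin (Cdh2). All non-control array probes that the scanner files name for these 7 genes were taken, which gave 9 of 41012 probes. The genes were chosen with results of the same comparison known, and 1 Ctnnb1 probe stands on the list of changed genes that the study drew from these arrays. It is called the listed probe below, and the differences between groups at the 9 probes are therefore given as a description, with no test.

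RNA was taken from the medial prefrontal cortex of male rats aged 4 months. In the heroin group, 6 rats had self-administered heroin, and in the yoked saline group 5 rats had received saline infusions yoked to those of self-administering rats. Both groups then had 14 days of enforced abstinence and an extinction session, in which responding no longer delivered drug, before the tissue was taken. Each rat gave 1 single-colour Agilent array of 45018 spots, and both groups share the infusions, the abstinence and the extinction session, so that the yoked rats differ both in the drug and in control over its delivery.

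Beta-catenin has separate pools in a cell. At the membrane it links cadherins to alpha-catenin and the actin cytoskeleton, and in neurons such complexes sit at synapses. In the cytoplasm a complex of Axin and Apc holds it for phosphorylation by casein kinase 1 and by the Gsk3 kinases, which marks it for degradation. Wnt ligands, acting through Frizzled and Lrp receptors and Dishevelled, disable that complex, and beta-catenin then enters the nucleus and works with TCF/LEF factors. Axin2 is both a scaffold of the complex and a transcriptional target of the pathway. Much of this control acts on the protein, which these arrays do not measure.

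The 60-nucleotide probes that read beta-catenin with 10 spots and the Gsk3 kinases are shown so that what each of them reads can be seen. The comparisons of beta-catenin with other genes further on use its listed probe. They are given 5′ to 3′ as in the array files.
Ctnnb1, 10-spot probe: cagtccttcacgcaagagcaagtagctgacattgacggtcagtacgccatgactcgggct
Gsk3a: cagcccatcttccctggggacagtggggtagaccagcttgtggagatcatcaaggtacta
Gsk3b: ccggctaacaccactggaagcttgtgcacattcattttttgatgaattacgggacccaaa
In build rn3, which the files name, the 10-spot Ctnnb1 probe (A_44_P409339) lies at chr8:125998417-125998608 on the plus strand. This interval runs over 192 bases, longer than the 60 bases of the probe, so the probe is split in the genome. The Gsk3a probe lies at chr1:80584935-80585081 on the minus strand, over 147 bases, and the Gsk3b probe at chr11:64359883-64359942 on the minus strand in 1 block. Apc has a 5′-side probe at chr18:26766044-26766782, split over 739 bases, and a 3′-side probe at chr18:26816565-26816624, both on the plus strand. The probes of Axin1 (chr10:15463392-15463451, plus strand), Axin2 (chr10:98335475-98335534, plus strand) and Cdh2 (chr18:8049328-8049387, minus strand) are unsplit. Which exon or untranslated region holds each probe was not analysed here. GC content among the 9 probes ran from 35.0% for Cdh2 to 55.0% for Gsk3a and the 10-spot Ctnnb1 probe.

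Every one of the 9 probes was scored well above background on all 11 arrays, and none was saturated on any. Relative to the lowest signal that the software still scored as well above background on an array, the mean signal was 29.0 times higher for the listed Ctnnb1 probe and 3.07 times higher for the 10-spot probe, which makes the latter the member probe nearest to background. The Axin1 probe was 90.5 times, the Apc 5′-side probe 54.6 times, the Cdh2 probe 51.9 times and the Gsk3b probe 48.6 times above that limit. The Apc 3′-side probe was 17.9 times, the Gsk3a probe 6.84 times and the Axin2 probe 6.00 times above it. These multiples describe how well each probe was measured and not which gene had more RNA, because probes bind with different strength.

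Array quality and tissue set limits on what follows. Median signals were 42.7 to 78.3 in heroin and 58.0 to 83.2 in saline arrays. Detected probes per array numbered 28185 to 33209 in heroin and 30098 to 33835 in saline rats. Heroin rat 5 had the highest of the heroin counts, and the next was 30479. The 75th percentile of signal stood farther above the median in heroin than in saline arrays on average. By that measure saline rat 5 was the highest saline array and heroin rat 5 the lowest heroin array. A signal is given below as a multiple of its array's median over all non-control probes, which is the scaling of the study. On that scale the median log2 difference between groups (heroin minus saline) over the 25555 tested probes was 0.18, against 0.01 after quantile normalization and −0.03 with the 75th percentile, so a log2 difference near 0.18 is that of an ordinary probe. Saline rat 5 stood apart from the other saline rats, since leaving it out took the number of probes past both thresholds used here (an unadjusted limma p under 0.02 and a difference of at least 1.4-fold) from 694 to 2352. Saline and heroin rats with the same number, from 2 to 6, were scanned together, with the saline array always at position 3 and the heroin array always at position 4 of the slide, so array position and group cannot be told apart. The excitatory neuron markers Slc17a7, Camk2a, Nrgn and Snap25 and all 5 interneuron markers were detected on all arrays, and 3 further excitatory markers had no matched probe. Summed marker signals overlapped between the groups: 469 to 735 in heroin and 455 to 629 in saline rats for 4 excitatory markers, 242 to 349 and 218 to 301 for 5 interneuron markers, 353 to 884 and 296 to 925 for 6 oligodendrocyte markers, and 327 to 457 and 275 to 418 for 6 astrocyte markers. They were 37.0 to 94.0 and 41.1 to 59.7 for 5 microglial, 46.7 to 73.1 and 32.4 to 66.8 for 5 endothelial, 8.04 to 11.6 and 8.21 to 22.6 for 5 striatal and 6.94 to 20.2 and 7.53 to 20.3 for 2 blood markers. The median log2 difference of a marker set's tested probes ran from −0.15 for striatal to 0.31 for excitatory markers, beside 0.18 for all tested probes. After quantile normalization it ran from −0.26 to 0.10 for the same sets, beside 0.01. None of the 46 tested marker probes passed both thresholds with limma, with the methods' t-test or after quantile normalization, and 1 had an unadjusted limma p under 0.05. Of all tested probes, 2.72% passed both thresholds with limma, 309 of 25555 with the methods' test and 1.79% after quantile normalization. At these shares 46 probes are too few for the absence of a pass to be read. An unadjusted limma p under 0.05 was found for 18.5% of all tested probes. In such tissue, fewer cells of a type and less RNA per cell cannot be told apart.

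The signal of the listed Ctnnb1 probe was higher in every heroin rat than in every saline rat. The 5 saline rats, numbered 2 to 6, had signals of 6.16, 5.76, 5.56, 7.24 and 6.28 times the array median. The 6 heroin rats ran from 7.64 to 9.80 with a median of 8.89. The groups did not overlap, and the 2 rats nearest to each other were heroin rat 5 at 7.64 and saline rat 5 at 7.24. The means were 8.83 ± 0.823 (SD, n = 6) and 6.20 ± 0.650 (SD, n = 5), a log2 difference of 0.51 with an SE of 0.12, or 1.43-fold. The study also measured Ctnnb1 by RT-qPCR, on aliquots of the RNA used for its arrays. Its RT-qPCR groups held more rats than its array groups, included rats with a shorter abstinence, and were scaled to beta-actin. By its report the RT-qPCR did not bear out the array difference.

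The listed Ctnnb1 probe was the 1 of the 9 member probes past both thresholds, where 2.72% of all tested probes passed. Passing higher in heroin was found for 1.79% of tested probes and passing lower for 0.923%, or 458 and 236 probes. This balance turned with the scaling, with 33 higher and 746 lower on the 75th percentile, 42 and 633 on the median of detected probes, and 218 and 239 after quantile normalization. A complete separation with every heroin rat above every saline rat was seen at 1.47% of the 25252 tested probes with a value on all arrays. Since the probe was listed for this difference, nothing is read from these shares. No adjusted limma p of any of the 25555 probes was under 0.05, the smallest being 0.263, while 4729 probes had an unadjusted p under 0.05. The methods' t-test also gave 0 probes under 0.05 after adjustment and 4134 before it.

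**Figure D1:**
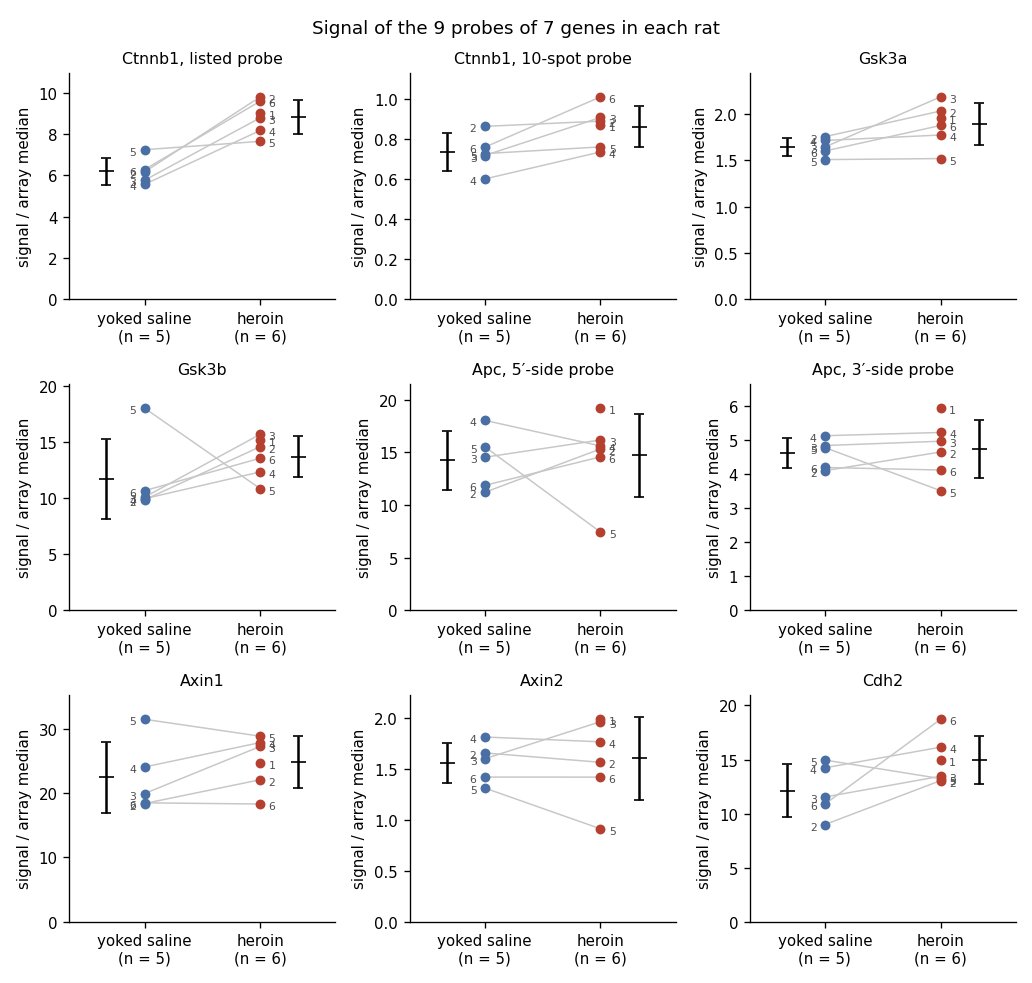
Signal of each of the 9 probes, as a multiple of the array median, in 5 yoked saline rats (blue) and 6 heroin rats (red); numbers name rats, grey lines join rats scanned together, and black bars give the mean ± SD. The listed Ctnnb1 probe is the panel in which the groups do not overlap, and saline rat 5 for Gsk3b (18.1) and heroin rat 5 for the Apc 5′-side probe (7.43) lie far from their groups.

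The size of this difference depended on the scaling, while its direction did not. After quantile normalization the listed probe's log2 difference was 0.28 (SE 0.11), with 4 of 6 heroin rats above every saline rat, and no member probe passed both thresholds, where 1.79% of tested probes did. A complete separation with heroin higher was left at 0.333% of probes under that scaling, and the listed probe was not among them. With the 75th percentile the difference was 0.29 and with the median of detected probes 0.32, and no member probe passed under either, where 3.05% and 2.64% of tested probes did. With normexp background correction it was 0.41. On the study's scale the listed probe exceeded the median probe by 0.33. The 1.43-fold difference also lay close to the 1.4-fold limit. Without heroin rat 2 it was 1.39-fold and without saline rat 4 1.39-fold, and either omission placed it below the limit.

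Within slides the listed probe was higher in the heroin rat on all 5 slides that held both groups. The log2 differences were 0.67, 0.61, 0.56, 0.08 and 0.61 for the rats numbered 2 to 6, so the pair numbered 5 differed least. After quantile normalization the same 5 differences ran from 0.22 to 0.40 and that pair no longer differed least. A fit with the slide as a block, in which heroin rat 1 drops out because it has no saline partner, gave 0.50 (SE 0.17). Without both rats numbered 5, an omission chosen after the data were seen, the difference was 0.61.

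The second Ctnnb1 probe, spotted 10 times on each array, gave a smaller difference on the array-median scale. The saline rats 2 to 6 had 0.861, 0.716, 0.599, 0.725 and 0.757 times the array median. The heroin rats ran from 0.734 to 1.01 with a median of 0.877. The groups overlapped, with 4 of 6 heroin rats above every saline rat and all 6 above the saline median. The means were 0.860 ± 0.101 (SD, n = 6) and 0.732 ± 0.0940 (SD, n = 5), and the log2 difference was 0.23 (SE 0.13). After quantile normalization it was 0.28 (SE 0.11), beside 0.28 for the listed probe, whereas with the 75th percentile it was 0.02 beside 0.29. The heroin rat was higher on all 5 slides, by log2 differences from 0.04 to 0.41. With the median of detected probes the 10-spot probe differed by 0.04 beside 0.32 for the listed probe, and with normexp by 0.09 beside 0.41. The sizes of the differences at the 2 Ctnnb1 probes were thus alike after quantile normalization only, and unlike under the other scalings and normexp.

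The 10 spots of this probe allow the error within an array to be set beside the spread between rats. The SD of log2 signal among its 10 spots had a median of 0.18 over the arrays and reached 0.35, and the SD between rats within groups was 0.18. An average of 10 spots reduces the first of these. For the brighter 10-spot probes of Gsk3b and Cdh2 the spot SD was 0.05 and 0.06 in the median, against 0.29 and 0.25 between rats. The listed probe has a single spot, so its error within an array has no direct measure. Its SD between rats was 0.14, and 4.22% of all tested probes had a residual SD as low as that or lower. The probe was listed partly by its p on these arrays, which favours a low SD, so nothing is read from this share.

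The probe pairs of Ctnnb1 and of Apc were also compared on a measure that does not use the group difference, the deviation of each rat from its group mean. Over the 11 rats the 2 Ctnnb1 probes had a Pearson r of 0.62 (permutation p = 0.060) and a Spearman rho of 0.55 (permutation p = 0.100), and r was 0.45 without heroin rat 4 and saline rat 4, the rats farthest from the median of the 10-spot probe. After quantile normalization r was 0.74 (permutation p = 0.018), and 0.63 without the 2 farthest rats. The 2 Apc probes had r of 0.91 (permutation p = 0.00015) and rho of 0.88 (permutation p = 0.00076), and r was 0.80 without heroin rats 1 and 5, the farthest from the median of the 3′-side probe. After quantile normalization r was 0.79 (permutation p = 0.0091), and 0.50 without the 2 farthest rats. Adjusted over the 2 pairs, p for r was 0.060 for Ctnnb1 and 0.0003 for Apc on the array-median scale, and 0.018 for both after quantile normalization. All tests were two-sided with 100000 permutations within groups. Only 5 slides held both groups, too few for a correlation of within-slide differences to be given. The Apc probes therefore followed each other across rats under both scalings, and the Ctnnb1 probes passed the threshold after quantile normalization but not on the array-median scale.

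**Figure D2:**
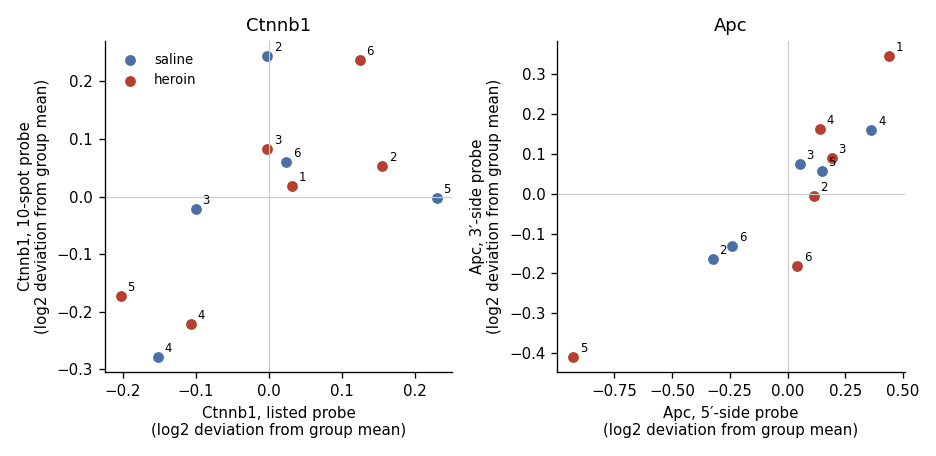
Log2 deviation of each rat from its group mean at the 2 probes of Ctnnb1 (left, r = 0.62) and of Apc (right, r = 0.91) on the array-median scale; points are 11 rats, with their numbers, in heroin (red) and saline (blue). Heroin rat 5 lies at the low end for both Apc probes.

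The kinases of the destruction complex differed between groups by about as much as the median probe. Gsk3b, a Gsk3 paralog that also acts in insulin and growth factor signalling, had saline signals of 9.87, 10.1, 9.97, 18.1 and 10.7 in rats 2 to 6. The heroin rats ran from 10.9 to 15.7 with a median of 14.1. All 6 heroin rats were above 4 of the 5 saline rats, and saline rat 5 was above all of them. The log2 difference was 0.26 (SE 0.17), against 0.18 for the median probe, and 0.02 (SE 0.13) after quantile normalization, against 0.01. The result rested on rat 5 of each group: without saline rat 5 the difference was 0.42 and without both rats numbered 5 it was 0.49, and in the latter setting, where 10.6% of tested probes passed both thresholds, Gsk3b was the second member probe past them. Within slides the heroin rat was higher on 4 of 5, and the pair numbered 5 differed by −0.73.

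Gsk3a, the other Gsk3 paralog, had saline signals from 1.51 to 1.76 and heroin signals from 1.52 to 2.19. Of the 6 heroin rats, 5 were above every saline rat, and heroin rat 5 was within the saline range. The means were 1.89 ± 0.229 (SD, n = 6) and 1.64 ± 0.0974 (SD, n = 5), a log2 difference of 0.19 (SE 0.12). It was 0.09 (SE 0.10) after quantile normalization and turned to −0.02 with the 75th percentile. A further probe, named TC522091 in the files and described there as the kinase's alpha form, was not a member by the rule and was looked up after the data were seen. Its log2 difference was 0.28 (SE 0.15) and 0.04 after quantile normalization.

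Among the scaffolds, Apc differed between groups by less than its standard error on the array-median scale. The 5′-side probe ran from 7.43 to 19.2 with a median of 15.5 in heroin rats and was 11.2, 14.5, 18.0, 15.5 and 11.9 in saline rats 2 to 6. Heroin rat 5 was below every other rat and heroin rat 1 above every other. The log2 difference was 0.01 (SE 0.21), and it was −0.23 (SE 0.18) after quantile normalization. On the array-median scale it was 0.24 without both rats numbered 5. The 3′-side probe had heroin signals of 3.51 to 5.93 and saline signals of 4.09 to 5.12, with a log2 difference of 0.02 (SE 0.14) and of −0.19 (SE 0.11) after quantile normalization. After that normalization the 3′-side probe was lower in the heroin rat on all 5 slides and the 5′-side probe on 4, while on the array-median scale each was higher on 3 of 5. A further probe described as Apc, TC552847 in the files and outside the rule, differed by 0.27 (SE 0.18) and by 0.03 after quantile normalization.

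Axin1, the scaffold on which the complex assembles, had saline signals from 18.4 to 31.5 and heroin signals from 18.3 to 28.9, and no heroin rat was above every saline rat. The log2 difference was 0.16 (SE 0.17) and turned to −0.09 (SE 0.14) after quantile normalization. Axin2, whose transcription follows nuclear beta-catenin in many cells, had saline signals from 1.31 to 1.81 and heroin signals from 0.911 to 1.99. Its means were 1.60 ± 0.404 (SD, n = 6) and 1.56 ± 0.198 (SD, n = 5), a log2 difference of 0.0014 (SE 0.19), and −0.10 (SE 0.18) after quantile normalization. The heroin rat had the higher Axin2 signal on 1 of 5 slides under both scalings.

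N-cadherin (Cdh2), the classical cadherin that binds beta-catenin at synapses, had saline signals of 8.98, 11.5, 14.2, 15.0 and 10.9 in rats 2 to 6. The heroin rats ran from 13.0 to 18.7 with a median of 14.2. The groups overlapped, with 2 of 6 heroin rats above every saline rat and 3 of 5 saline rats below every heroin rat. The log2 difference was 0.31 (SE 0.16), the second largest of the 9 on the array-median scale, and 0.07 (SE 0.11) after quantile normalization. The heroin rat was higher on 4 of 5 slides.

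Over the 9 probes the heroin mean was higher at all 9 on the array-median scale, where 78.7% of all tested probes had a higher heroin mean, and at 5 of 9 after quantile normalization, where 53.2% did. The median log2 difference of the 9 was 0.19 beside 0.18 for all tested probes, and 0.02 beside 0.01 after quantile normalization. The settings tried gave 20 distinct values of each difference, the others being equal by construction. Both Ctnnb1 probes, Gsk3b and Cdh2 had a higher heroin mean in all 20, Gsk3a in 19 and Axin1 in 17, while the Apc 3′-side probe had one in 13, the Apc 5′-side probe in 10 and Axin2 in 9. Most of these settings kept the array-median scaling, under which 78.7% of all tested probes were higher, so they are not independent. Axin1 was lower in heroin under each other scaling: −0.06 with the 75th percentile, −0.03 with the median of detected probes and −0.09 after quantile normalization.

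**Figure D3:**
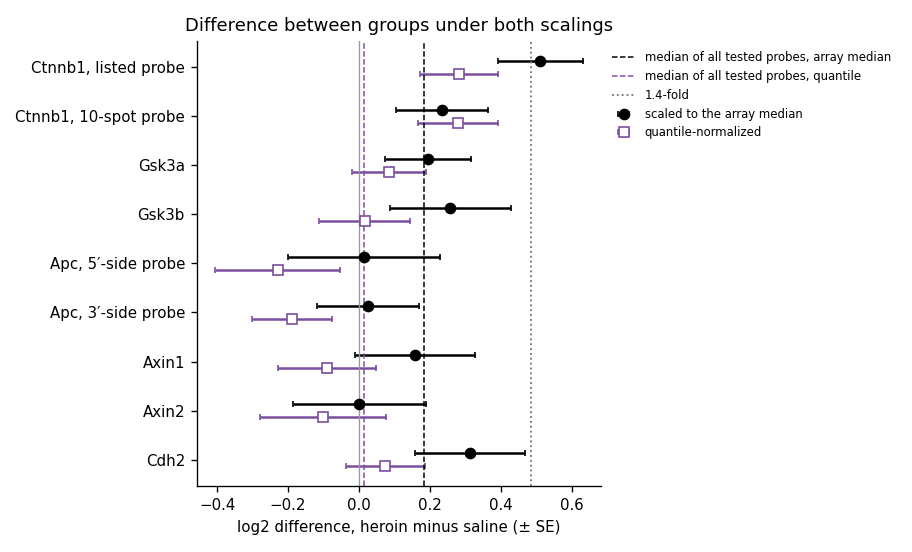
Log2 difference between groups (heroin minus saline, ± SE, 6 against 5 rats) at the 9 probes with each array divided by its median (black) and after quantile normalization (purple), with the medians of all tested probes as dashed lines and 1.4-fold as a dotted line. The listed and 10-spot Ctnnb1 probes stand at 0.51 and 0.23 with the array median. Both stand at 0.28 after quantile normalization, and the probes of Apc, Axin1 and Axin2 then lie below 0.

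Members were compared with each other across the 11 rats as deviations from the group means, with 1 probe per gene. None of the 21 gene pairs had an adjusted permutation p under 0.05, and 3 had an unadjusted permutation p under 0.05 on the array-median scale and 2 after quantile normalization. Axin2 was in 2 of those 3 pairs. With Gsk3a its r was 0.84 (permutation p = 0.010, adjusted 0.106, rho 0.65, permutation p = 0.056), 0.49 without the 2 rats farthest from the Gsk3a median, and 0.72 after quantile normalization, where it was 0.19 without the 2 farthest rats. With Apc its r was 0.83 (permutation p = 0.020, adjusted 0.141, rho 0.69, permutation p = 0.030), 0.68 without heroin rat 5 and saline rat 2, the farthest from the Apc median, and 0.89 after quantile normalization, or 0.56 without the 2 farthest rats.

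Ctnnb1 and Gsk3b formed the third pair, with r of 0.81 (permutation p = 0.0092, adjusted 0.106, rho 0.75, permutation p = 0.012). It was 0.60 without the 2 rats farthest from the Ctnnb1 median, which were those numbered 5, and 0.42 after quantile normalization, or 0.06 without the 2 rats farthest under that scaling, so this relation was smaller there and rested on 2 rats. Over all 21 pairs the median r was 0.27 with 17 positive on the array-median scale, and −0.12 with 9 positive after quantile normalization.

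**Figure D4:**
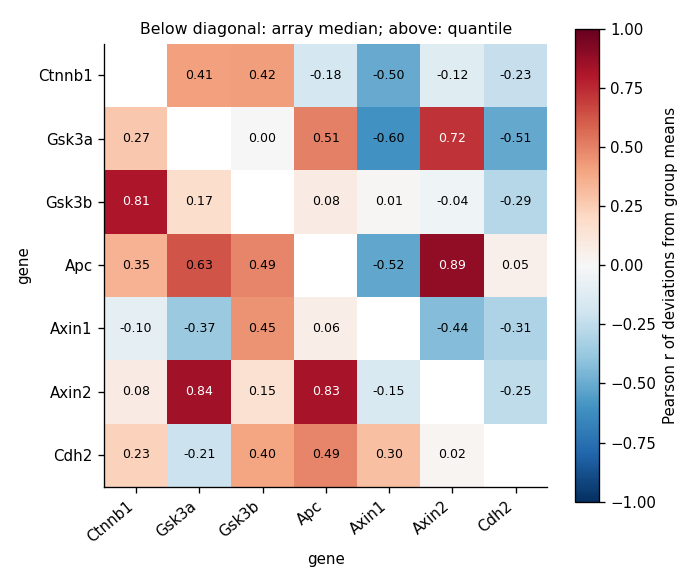
Pearson r of the deviations of 11 rats from their group means for each pair of the 7 genes, with array-median scaling below the diagonal and quantile normalization above it. Axin2 with Apc is 0.83 and 0.89, Axin2 with Gsk3a 0.84 and 0.72, and Ctnnb1 with Gsk3b 0.81 and 0.42, and without the 2 farthest rats these are 0.68 and 0.56, 0.49 and 0.19, and 0.60 and 0.06.

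The named genes whose deviations were most like those of the listed Ctnnb1 probe over the 11 rats were Araf, a kinase of the MAP kinase cascade (r = 0.96), Mad2l1bp, which binds a spindle checkpoint protein (r = 0.95), Ada, adenosine deaminase (r = 0.94), Ndufv3, a subunit of mitochondrial complex I (r = 0.93), and Dhrs7b, a dehydrogenase (r = 0.93). They were the highest of 7204 probes with a RefSeq gene other than the members, of which 9 had r over 0.9 and whose median r was 0.23. After quantile normalization r was 0.97 for Araf, 0.84 for Mad2l1bp, 0.69 for Ada, 0.95 for Ndufv3 and 0.94 for Dhrs7b. The other Ctnnb1 probe, at 0.62, was exceeded by 7.65% of those probes. All points share arrays and their scaling, and likeness chosen from so many probes is a description.

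Of the other genes of the pathway, a list of 94 symbols was looked up, 76 were found on the array by RefSeq accession or by the name in the files, and 57 genes with 86 probes were tested. Of these 86 probes, 1 passed both thresholds, higher in heroin, and none lower, beside 2.72% of all tested probes passing. With the 75th percentile or the median of detected probes the call turned to another gene and direction: that probe no longer passed, and 1 other passed, lower in heroin. An unadjusted limma p under 0.05 was found for 14 of the 86 (16.3%, beside 18.5% of all tested probes), with 13 higher and 1 lower in heroin. On this scale 78.7% of all tested probes had a higher heroin mean, so nothing is read from that split. The methods' t-test placed 0 of the 86 past both thresholds, beside 309 of all 25555 tested probes. No adjusted p was under 0.263. The median log2 difference of the 86 was 0.17, beside 0.18 for all tested probes, and 0.04 after quantile normalization, beside 0.01. Of the 86 probes, 84 had a usable value on all 11 arrays.

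The probe that passed was 1 of 2 tested probes of Nkd1, which binds Dishevelled and dampens Wnt signalling. Its signal was 1.33 ± 0.384 (SD, n = 6) in heroin and 0.934 ± 0.189 (SD, n = 5) in saline rats. The log2 difference was 0.49 (SE 0.18, limma adjusted p = 0.263), and 0.49 after quantile normalization, with 2 of 6 heroin rats above every saline rat. It was 0.27 with the 75th percentile and 0.30 with the median of detected probes. The other Nkd1 probe, the brighter one, differed by 0.16 (SE 0.14, limma adjusted p = 0.479), and by 0.02 after quantile normalization. The groups thus overlapped, and the call was neither shared by the gene's other probe nor held under those scalings. The probe that passed in its place under them was that of the cadherin Cdh3, at −0.62 and −0.59, against −0.40 on the array-median scale and −0.30 after quantile normalization. After quantile normalization Nkd1 and Fzd3, a Frizzled receptor, were the 2 of the 86 pathway probes past both thresholds, where 1.79% of all tested probes passed. The Fzd3 log2 difference was 0.55 under that scaling. On the array-median scale it was 0.47 (SE 0.14, limma adjusted p = 0.263), just under the 1.4-fold limit. This probe was near background, at 3.05 times the lowest signal scored well above it.

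The genes named next by role are the brightest, each with its brightest probe. Upstream of the destruction complex, 8 ligand genes with 13 probes were tested and none passed. At 2.72% of all tested probes passing, 13 probes are too few for this count to be read. The brightest were Wnt11, with a log2 difference of 0.21 (SE 0.40, limma adjusted p = 0.737), and Wnt10a, with 0.23 (SE 0.16, limma adjusted p = 0.363), and both were slightly below 0 after quantile normalization (−0.03 and −0.0068). A second Wnt10a probe differed by 0.10 and by 0.12 after quantile normalization. Wls, the carrier that Wnt ligands need for secretion, had 0.35 (SE 0.15, limma adjusted p = 0.263) and 0.10 after quantile normalization. Among receptors Fzd1 had 0.29 (SE 0.20, limma adjusted p = 0.365) and Fzd2 0.08 (SE 0.14, limma adjusted p = 0.717), which turned to −0.11 after quantile normalization. Of the genes listed under secreted antagonists, Dkk3, placed there as a Dickkopf family member, had 0.28 (SE 0.16). Sfrp1, a Frizzled-related protein, had −0.13 (SE 0.23), and the limma adjusted p were 0.301 and 0.729. The antagonist Wif1, a Wnt-binding protein noticed after the values were seen, was the 1 of the 86 probes with every heroin rat above every saline rat, beside 1.47% of probes, and its log2 difference was 0.30 (SE 0.13, limma adjusted p = 0.263), or 0.16 after quantile normalization.

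In the cytoplasm, Dvl1, a Dishevelled, had a log2 difference of 0.18 (SE 0.13, limma adjusted p = 0.384) and Csnk1a1, the casein kinase that primes beta-catenin for the Gsk3 kinases, one of 0.10 (SE 0.18, limma adjusted p = 0.728), and both turned below 0 after quantile normalization (−0.07 and −0.16), as did a second Csnk1a1 probe, from 0.16 to −0.09. The nuclear partners Cby1, which binds beta-catenin, and Bcl9, which links it to coactivators, had 0.22 (SE 0.12) and 0.13 (SE 0.11), with limma adjusted p of 0.304 and 0.452. Of the transcriptional targets, 4 genes with 9 probes were tested and none passed. With 2.72% of all tested probes passing, 9 probes are too few for this count to be read. Id2, an inhibitor of helix-loop-helix factors, had 0.29 (SE 0.24, limma adjusted p = 0.469) and the adhesion protein Nrcam 0.24 (SE 0.15, limma adjusted p = 0.340), and after quantile normalization these were 0.04 and −0.0063. Both genes had 2 further probes with smaller differences, of 0.04 and 0.04 for Id2 and of 0.07 and −0.09 for Nrcam. The brightest Id2 probe lacked a usable value on some arrays, so its difference and SE rest on fewer than 6 heroin and 5 saline rats. The median of the 9 target probes was 0.16, beside 0.18 for all tested probes.

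At the membrane, the other catenins had 8 tested probes with a median log2 difference of 0.15. Ctnnd2, delta-catenin, which is enriched in neurons and binds cadherins, had 15.3 ± 2.85 (SD, n = 6) in heroin and 11.8 ± 1.33 (SD, n = 5) in saline rats, with 5 of 6 heroin rats above every saline rat. Its log2 difference was 0.36 (SE 0.16, limma adjusted p = 0.263) and 0.13 after quantile normalization. Its second probe differed by 0.12 (SE 0.12, limma adjusted p = 0.523), and by −0.10 after quantile normalization, with 2 of 6 heroin rats above every saline rat. Ctnna1, an alpha-catenin, had 0.07 (SE 0.14, limma adjusted p = 0.757), and −0.17 after quantile normalization. The other classical cadherins had 16 tested probes with a median of 0.19. The brightest, Cdh22 and Cdh10, had 0.32 (SE 0.29, limma adjusted p = 0.489) and 0.25 (SE 0.17, limma adjusted p = 0.368), and after quantile normalization −0.0058 and 0.02. A second Cdh22 probe differed by 0.38, and 2 further Cdh10 probes by 0.18 and 0.25. The brightest Cdh22 probe lacked a usable value on some arrays, so its difference and SE rest on fewer than 6 heroin and 5 saline rats.

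**Figure D5:**
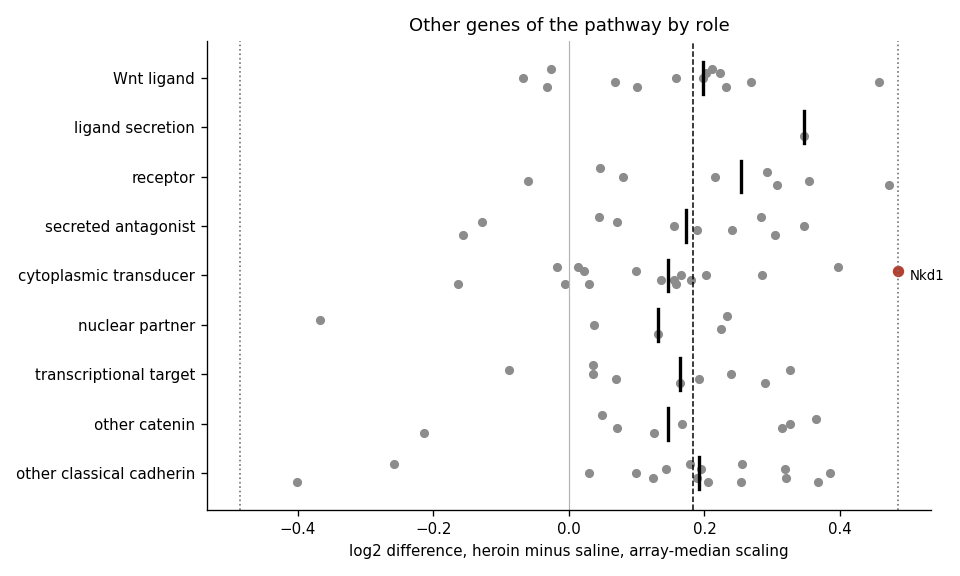
Log2 difference between groups (heroin minus saline, array-median scale) of the 86 tested probes of other pathway genes, one point per probe, by role; black bars are medians of a role, the dashed line is the median of all tested probes (0.18) and the dotted lines are 1.4-fold. Nkd1 (red) is the probe past both thresholds, and the medians of the roles lie between 0.13 and 0.35.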

How the data were processed

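The authors deposited, for each array, signal intensity per spot from Feature Extraction 9.5.1.1 (background-subtracted, not scaled between arrays), and relative values, a ratio per probe made in GeneSpring with a floor of 5, division by the array's 50th percentile and by the gene's median. From the intensities, control spots were dropped, as were spots that the software flagged (non-uniform, outlier), values under 5 set to 5, arrays divided by their 50th percentile over non-control probes, log2 taken and spots of a probe averaged. Tested probes were detected on all 11 arrays, with at least 0.5 of their spots well above background, and kept usable spots on at least 2 arrays per group. Probe positions and build come from the deposited file headers and other annotation columns. Gene symbols came from RefSeq accessions (10735 probes) or from the files.

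Groups, taken from the sample records, were compared with limma 3.58.1 (R 4.3.3) by two-sided tests, adjusted by Benjamini-Hochberg across 25555 probes. A fold change is that of mean log2 values. Correlations used numpy 2.4.6 and 100000 permutations within groups. The fit was tested on simulated data.

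Members, gene lists and tests were chosen with earlier results of these data known. Pathway genes named are those past both thresholds and the 2 brightest of each role. Alternatives were other scalings, background correction, floor order, marked spots, detection filters, the authors' relative values, other tests, array weights, blocks and omission of each rat. The methods give 12 arrays, of which 11 were analysed here. The sequence and position of the listed Ctnnb1 probe are not reported here. The number of arrays limits precision.

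Same-numbered arrays were scanned together, but the number is not stated to pair rats. The deviations of same-numbered rats from their group means correlated at 0.38, −0.13, 0.35, 0.02 and −0.24 over 25252 probes.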

Additional observations from a re-analysis of the deposited data

Results flagged for a closer look

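In 51 groups of 4 to 6 rats examined, over the 9 member probes and the named pathway genes, 5 held a rat far from the others of its group by Dixon's criterion, which chance gives in about 1 of 20 groups. Gsk3b was 18.1 times the array median in saline rat 5 and 9.87 to 10.7 in the other saline rats. The Apc 5′-side probe was 7.43 in heroin rat 5 and 14.6 to 19.2 in the other heroin rats. Csnk1a1 was 28.0 in the same heroin rat and 49.1 to 55.3 in the others. Wnt10a was 14.0 in saline rat 4 and 10.5 to 11.1 in the others. Ctnnd2 was 10.1 in heroin rat 6 and 15.0 to 18.7 in the others. Of these 5, 3 lay in the 2 rats numbered 5, which were scanned together.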

How the results depend on the processing

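The number of all probes past both thresholds was 694, and it was 457 after quantile normalization (218 higher and 239 lower, against 458 and 236), 126 with normexp (122 and 4), 1560 with no detection filter, 1066 with detection in 1 group, 309 with the methods' t-test and 2378 with array weights. Leaving out rats gave 342 (without saline rat 2) to 2702 (without both rats numbered 5), with 394 without saline rat 3 and 2352 without saline rat 5. Of the member probes, 0 passed with the 75th percentile, the median of detected probes, quantile normalization or normexp, and 0 to 2 passed when rats were left out (0 without heroin rat 2 or saline rat 4). The 2 member probes passed without both rats numbered 5, where 10.6% of all tested probes did. The listed Ctnnb1 probe passed both thresholds in 9 of 11 omissions of 1 rat and 10 of 14 other alternatives. Those 10 all kept the array-median scaling, and several of them repeat the same difference, so the count does not measure independent support. The alternatives without a pass were those with another scaling or background correction. Its log2 difference was 0.29 with the 75th percentile, 0.32 with the median of detected probes and 0.28 after quantile normalization, and 0.47 to 0.61 when rats were left out. Of the pathway probes, 2 passed after quantile normalization or with array weights. With marked spots kept, normexp, the authors' relative values, no detection filter, detection in 1 group, the methods' t-test or eBayes with trend and robust, 0 passed, and 0 to 9 when rats were left out. The 9 of 86 came without both rats numbered 5, where 10.6% of all tested probes passed. The 2 of 86 with array weights stand beside 2378 of all 25555 tested probes. The same-gene probe pairs past the threshold numbered 1, and 2 after quantile normalization. The split turned to 33 higher and 746 lower with the 75th percentile and to 42 and 633 with the median of detected probes, and the 1 pathway probe past both thresholds was then lower, not higher. The causes were not tested. With the replicate block, which is the same division of rats as the slide block and drops heroin rat 1, the listed probe differed by 0.50, and neither block moved the counts by over 1.5 times. A probe of low signal, such as the 10-spot Ctnnb1 probe, is measured with more spot error.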
